A study of Mus musculus with 6 samples.

Results

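The 8 genes described here encode the repressors of the circadian clock in the mouse: the period genes Per1, Per2 and Per3, the cryptochrome genes Cry1 and Cry2, the DEC genes Bhlhe40 (DEC1) and Bhlhe41 (DEC2), and Ciart, also known as CHRONO. They were chosen by gene symbol, with earlier results of these data known, from a table of 27482 gene symbols, and all 8 passed the filter on low counts that left 14663 genes for testing. The table holds 6 RNA-seq libraries, of which 3 carry the label AAV9-hFNDC4 and 3 the label AAV9-CTRL. Per the labels and the series text, the material is heart of male mice that received an adeno-associated virus serotype 9 vector, either for overexpression of FNDC4 or as a control, and all mice then underwent ischemia/reperfusion (I/R), an interruption of coronary blood flow followed by its return. Hearts were collected 24 h after I/R in both groups. The sources used here do not give the strain, the age, the promoter of the vector or the clock time of collection. No label says whether the libraries came from separate animals, so errors and calls reflect the spread among these libraries alone, which could be technical.

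The circadian clock is a transcriptional feedback loop. CLOCK and BMAL1 (gene Arntl) bind E-box sequences and switch on the Per and Cry genes, and the PER and CRY proteins then return to the nucleus and block CLOCK and BMAL1. DEC1 and DEC2 bind E-boxes themselves, CIART represses CLOCK and BMAL1, and a further loop of REV-ERB and ROR nuclear receptors controls Arntl and Cry1. In the heart this clock is known to time metabolism, electrical properties and tolerance to ischemia, and the abundance of its transcripts changes with the time of day.

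Total counts lay between 34419687 and 35149915 for AAV9-hFNDC4 and between 32975817 and 36074046 for AAV9-CTRL. Genes with a count numbered 18717 to 18863 in AAV9-hFNDC4 libraries and 20431 to 20870 in AAV9-CTRL libraries, so these ranges did not overlap. Markers of heart muscle went against the tissue label: 3 of 15 reached a mean of 1 CPM (counts scaled to a common library size) over the 6 libraries, and Myl7, Pln and Nkx2-5 had no count at all. The groups are therefore named by their labels. The summed level of the 15 markers was 47.9 to 49.6 CPM in AAV9-hFNDC4 libraries and 54.5 to 56.3 CPM in AAV9-CTRL libraries. Their median was 0.167 CPM, against 504 CPM for 9 fibroblast markers. Tnnt2 made up most of the heart muscle sum, with a mean of 40.3 CPM in AAV9-hFNDC4 libraries and 48.9 CPM in AAV9-CTRL libraries. The others that reached 1 CPM went the other way. Ttn averaged 4.86 CPM in AAV9-hFNDC4 and 3.70 CPM in AAV9-CTRL libraries, and Myh7 2.17 CPM in AAV9-hFNDC4 and 1.04 CPM in AAV9-CTRL libraries. The summed level of the 9 fibroblast markers was 11811 to 12971 CPM in AAV9-hFNDC4 libraries and 6836 to 7992 CPM in AAV9-CTRL libraries, 6 of the 9 reaching 1 CPM. Fn1 made up most of that difference, with a mean of 5767 CPM in AAV9-hFNDC4 libraries and 1789 CPM in AAV9-CTRL libraries, whereas Vim averaged 3445 CPM in AAV9-hFNDC4 and 3693 CPM in AAV9-CTRL libraries, and Dcn, Lum and Postn were near 0 in both groups, at means of at most 0.204 CPM. The 5 mural cell markers, 2 of which reached 1 CPM, summed to 568 to 636 CPM in AAV9-hFNDC4 libraries and to 282 to 343 CPM in AAV9-CTRL libraries. For 10 leukocyte and macrophage markers, again with 2 at 1 CPM, the sum was 19.8 to 22.6 CPM in AAV9-hFNDC4 libraries, against 35.3 to 42.3 CPM in AAV9-CTRL libraries. Cd68 made up most of this difference, with a mean of 12.3 CPM in AAV9-hFNDC4 libraries and 26.4 CPM in AAV9-CTRL libraries. Lyz2, the other marker at 1 CPM, averaged 7.46 CPM in AAV9-hFNDC4 and 7.20 CPM in AAV9-CTRL libraries. The 8 endothelial markers summed to 2.13 to 3.81 CPM in AAV9-hFNDC4 libraries and to 3.24 to 5.19 CPM in AAV9-CTRL libraries, with Emcn at 0. The endothelial sums overlap between the groups and the other 4 sums do not; their part in the results below was not tested. In bulk RNA, fewer cells of a type and less RNA per cell cannot be told apart. Fndc4 itself was not analysed here and gives no check of the vector labels.

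Of the 8 repressor genes, 6 were higher and 1 was lower in AAV9-hFNDC4 libraries than in AAV9-CTRL libraries, and Ciart was not called. The call is an adjusted p under 0.05 in edgeR's quasi-likelihood test over all 14663 genes, a rule that called 47.1% of them, 22.1% as higher and 25.0% as lower. The libraries of the groups did not overlap in 7 of the 8 genes, and in 56.6% of all tested genes. Because this same contrast was known when the 8 genes were chosen, their fold changes are given as a description and without p-values. The median log2 fold change of the 8 genes was 0.74, and that of all tested genes 0.01; the median absolute log2 fold change was 0.86 for the 8 and 0.45 for all tested genes. Values in CPM are scaled by library size with TMM (trimmed mean of M values) factors, and values after ± are SD with n = 3 libraries. The TMM factors were 1.03 to 1.07 for AAV9-hFNDC4 libraries and 0.929 to 0.959 for AAV9-CTRL libraries.

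**Figure D1:**
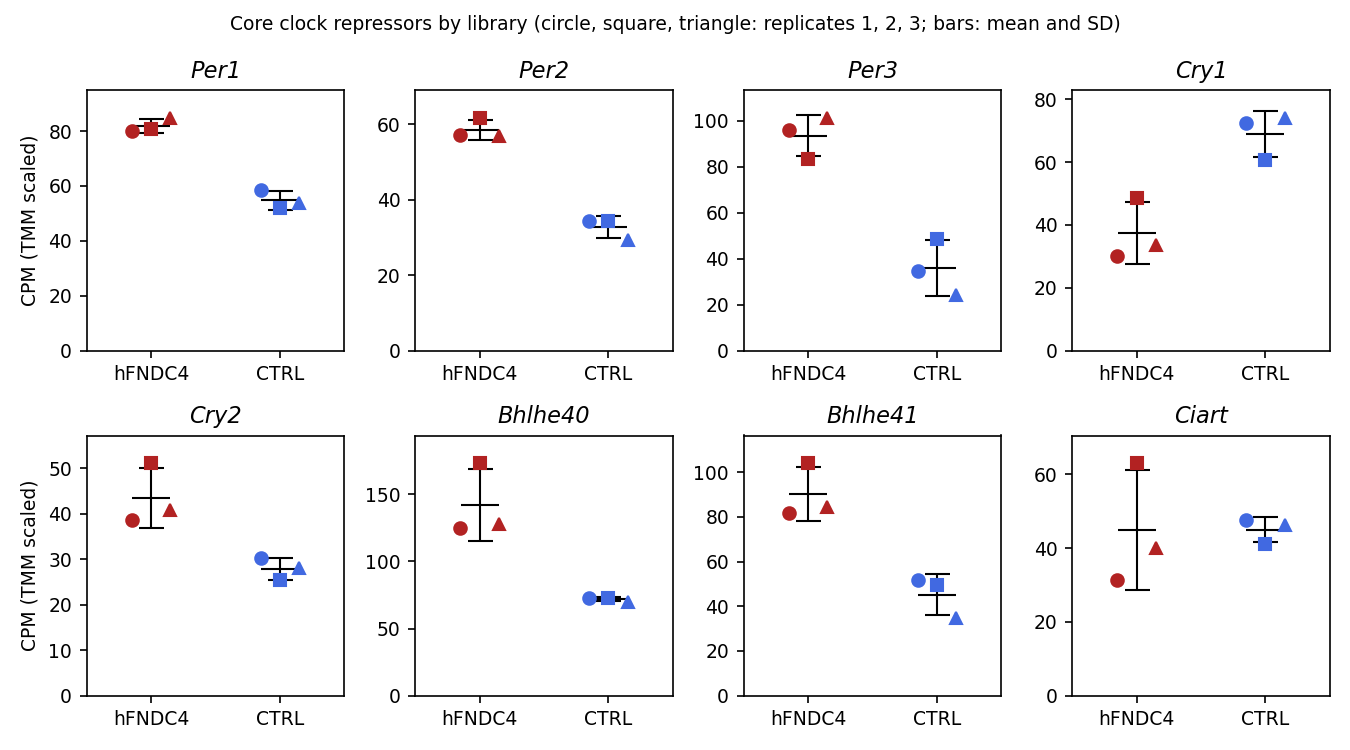
Level of each repressor gene in CPM (y axis, from 0) in the 3 AAV9-hFNDC4 libraries (red, left) and the 3 AAV9-CTRL libraries (blue, right); black bars are the mean and SD. Cry1 is the gene with lower AAV9-hFNDC4 values, and the groups overlap in Ciart, where AAV9-hFNDC4 replicate 2 (square) lies at 63.0 CPM.

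The 3 period genes, whose proteins bring the cryptochromes into the nucleus and carry the kinases that set the length of the cycle, were all higher in AAV9-hFNDC4 libraries. Per1 (chromosome 11, 69095108 to 69109965 on GRCm38, the build of all positions here) encodes the period protein whose transcript responds fast to cAMP and glucocorticoid signals. It stood at 79.9, 80.6 and 84.6 CPM in AAV9-hFNDC4 libraries and at 58.6, 51.8 and 53.9 CPM in AAV9-CTRL libraries. The 3 AAV9-hFNDC4 values lay close together, with a coefficient of variation of 3.14%, and all lay above the highest AAV9-CTRL value by at least 1.36-fold. The log2 fold change was 0.58 (SE 0.10).

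Per2 (chromosome 1, 91415977 to 91459351), the period gene whose loss most disturbs behavioural rhythms in mice together with that of Per1, had 57.0, 61.5 and 56.8 CPM in AAV9-hFNDC4 libraries. In AAV9-CTRL libraries it had 34.3, 34.4 and 29.3 CPM. The gap between the groups was 1.65-fold from the lowest AAV9-hFNDC4 to the highest AAV9-CTRL library, and the log2 fold change was 0.84 (SE 0.11). The ratio of Per1 to Per2, taken per kb of exon so that the genes can be compared, was 1.45 ± 0.0929 in AAV9-hFNDC4 libraries and 1.75 ± 0.173 in AAV9-CTRL libraries. Their ranges did not overlap, though the highest AAV9-hFNDC4 ratio (1.55) was next to the lowest AAV9-CTRL ratio (1.56).

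Per3 (chromosome 4, 150997018 to 151044707), which is dispensable for the core rhythm in mice and is used as a read-out of the clock in peripheral tissues, differed more between the groups than the other 7 genes. It stood at 95.8, 83.5 and 101 CPM in AAV9-hFNDC4 libraries and at 34.7, 48.6 and 24.4 CPM in AAV9-CTRL libraries. The AAV9-CTRL libraries were themselves spread, with a coefficient of variation of 33.7%, against 9.71% in AAV9-hFNDC4 libraries, but all lay below the lowest AAV9-hFNDC4 value. The log2 fold change was 1.38 (SE 0.20), and 8.93% of tested genes had a larger absolute change. With single libraries left out in turn it ranged from 1.17 to 1.66, the upper end being without AAV9-CTRL replicate 2, the highest of its group.

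Of the 6 genes whose promoter window was read, Per3 was the one with D-boxes near its start, a pair of them. D-boxes are bound by the activators DBP, TEF and HLF and by the repressor NFIL3. The RefSeq promoter window, chr4:151044616-151044915 on the minus strand of GRCm38.p6, covers 250 bases before to 50 after the transcription start and is shown 5′ to 3′ because of these elements, whose letters TTATGTAA are in capitals.
Per3: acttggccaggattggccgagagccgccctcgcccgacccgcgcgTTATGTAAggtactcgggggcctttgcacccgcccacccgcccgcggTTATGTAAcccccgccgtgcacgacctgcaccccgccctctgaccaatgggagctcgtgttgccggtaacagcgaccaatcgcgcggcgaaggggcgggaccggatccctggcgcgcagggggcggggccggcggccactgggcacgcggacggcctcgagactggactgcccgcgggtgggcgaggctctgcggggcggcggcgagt
The matches begin at -205 and -158 relative to the start. Of 32851 promoter windows of this length in the RefSeq table, 0.938% held TTATGTAA on either strand at least once and 0.0213% held it at least 2 times. A match is a description of the sequence and does not show binding.

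Among the D-box factors, Dbp had 108, 75.3 and 99.3 CPM in AAV9-hFNDC4 libraries and 33.7, 72.8 and 42.3 CPM in AAV9-CTRL libraries. The library with the lowest Per3 in its group, AAV9-hFNDC4 replicate 2, also had the lowest Dbp of its group, and AAV9-CTRL replicate 2 had the highest value of its group in both genes. The same held for Tef, which did not pass the test, with 211, 185 and 217 CPM in AAV9-hFNDC4 libraries against 143, 222 and 126 CPM in AAV9-CTRL libraries. It held too for Hlf, with 7.02, 6.65 and 7.17 CPM in AAV9-hFNDC4 libraries against 3.30, 4.24 and 3.08 CPM in AAV9-CTRL libraries. Nfil3 ran the other way, with 35.3, 63.6 and 45.8 CPM in AAV9-hFNDC4 libraries against 30.2, 25.2 and 33.1 CPM in AAV9-CTRL libraries, so that replicate 2 was the highest AAV9-hFNDC4 and the lowest AAV9-CTRL library. This comparison of replicates was made after the values had been seen. Dbp shares 29.3% of its exon bases with Sphk2 on the other strand, and no source used here says whether the counting used strand.

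The cryptochromes, the strongest repressors of CLOCK and BMAL1, went opposite ways. Cry1 (chromosome 10, 85131700 to 85185054), whose protein acts late in the repressive phase, stood at 30.2, 48.7 and 33.7 CPM in AAV9-hFNDC4 libraries and at 72.5, 60.6 and 73.9 CPM in AAV9-CTRL libraries. The AAV9-hFNDC4 libraries were all below the AAV9-CTRL libraries, with replicate 2 the nearest to them, at a gap of 1.24-fold. The log2 fold change was -0.88 (SE 0.17), and it was -1.11 (SE 0.13) without AAV9-hFNDC4 replicate 2.

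Cry2 (chromosome 2, 92403646 to 92434085), which opposes CRY1 in setting the period, since loss of Cry2 lengthens and loss of Cry1 shortens the rhythm in mice, had 38.6, 51.1 and 40.8 CPM in AAV9-hFNDC4 libraries. It had 30.2, 25.4 and 28.0 CPM in AAV9-CTRL libraries. The groups did not overlap, and the log2 fold change was 0.64 (SE 0.13). Within AAV9-hFNDC4, replicate 2 was the highest library for both cryptochromes, at 1.53 times the mean of the other AAV9-hFNDC4 libraries for Cry1 and 1.29 times for Cry2.

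Scaled by exon length, Cry1 made up 52.9%, 57.8% and 54.2% of the summed cryptochrome transcripts in AAV9-hFNDC4 libraries. In AAV9-CTRL libraries it made up 77.5%, 77.4% and 79.1%. This share varied little within groups (SD 2.54 and 0.954 percentage points, AAV9-hFNDC4 and AAV9-CTRL), although Cry1 and Cry2 each varied more. The ratio of Cry1 to Cry2 per kb was 1.22 ± 0.129 in AAV9-hFNDC4 libraries and 3.55 ± 0.202 in AAV9-CTRL libraries. The summed cryptochrome level was 22.4 ± 4.79 CPM per kb in AAV9-hFNDC4 libraries and 29.2 ± 2.89 in AAV9-CTRL libraries, and there the groups overlapped, since AAV9-hFNDC4 replicate 2 reached 27.9 and AAV9-CTRL replicate 2 was at 25.9.

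**Figure D2:**
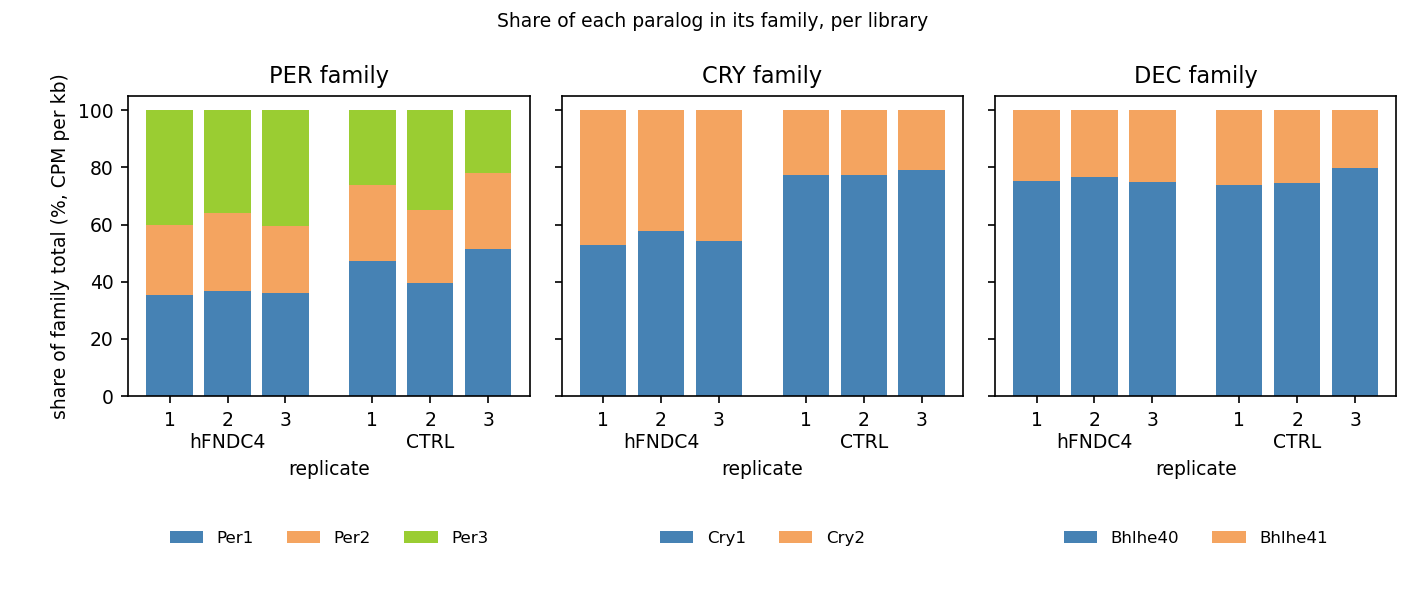
Share of each paralog in the summed level of its family (y axis, percent, from CPM per kb of exon) in each library, AAV9-hFNDC4 left and AAV9-CTRL right in every panel. Cry1 takes 52.9% to 57.8% of the CRY sum in AAV9-hFNDC4 libraries against 77.4% to 79.1% in AAV9-CTRL libraries, while the DEC shares overlap.

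The promoter windows of both cryptochrome genes are shown to set these opposite values beside their E-box elements. Capitals mark the E-box CACGTG and the E-prime box CACGTT, which reads AACGTG when it lies on the other strand. The windows are chr10:85185005-85185304 for Cry1 and chr2:92434020-92434319 for Cry2, both on the minus strand of GRCm38.p6 and from RefSeq.
Cry1: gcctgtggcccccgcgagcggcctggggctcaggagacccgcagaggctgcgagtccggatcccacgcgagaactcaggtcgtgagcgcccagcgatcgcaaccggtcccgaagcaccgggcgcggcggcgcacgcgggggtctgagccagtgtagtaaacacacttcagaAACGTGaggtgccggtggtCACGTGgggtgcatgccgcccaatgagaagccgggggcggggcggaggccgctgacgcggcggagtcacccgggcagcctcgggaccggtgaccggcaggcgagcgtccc
Cry2: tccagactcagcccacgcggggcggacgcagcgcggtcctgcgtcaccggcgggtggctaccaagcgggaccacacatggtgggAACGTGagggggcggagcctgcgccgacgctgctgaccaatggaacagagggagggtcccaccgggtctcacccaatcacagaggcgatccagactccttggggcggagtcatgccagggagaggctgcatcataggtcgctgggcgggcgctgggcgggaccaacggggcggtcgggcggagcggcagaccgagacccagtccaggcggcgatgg
Cry1 holds an E-prime box at -79 and an E-box at -60, and Cry2 an E-prime box at -166. For Cry2, bases just after this start were not found in a GENCODE vM21 transcript of the gene, as they were for the other windows, so its position is less certain. An E-box occurs in 7.15% of the 32851 windows and an E-prime box in 4.68%.

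The DEC genes encode basic helix-loop-helix repressors that compete with CLOCK and BMAL1 for E-boxes and that also respond to hypoxia. Bhlhe40 (chromosome 6, 108660629 to 108666925) was at 125, 173 and 128 CPM in AAV9-hFNDC4 libraries and at 73.0, 73.1 and 69.9 CPM in AAV9-CTRL libraries. The AAV9-CTRL libraries were nearly equal, with a coefficient of variation of 2.50%, and the lowest AAV9-hFNDC4 library lay 1.71-fold above the highest of them. Its log2 fold change of 0.98 (SE 0.13) was 0.82 (SE 0.10) without AAV9-hFNDC4 replicate 2, the highest library.

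Bhlhe41 (chromosome 6, 145858243 to 145865420), the paralog in which a human variant shortens sleep, was at 82.0, 104 and 84.4 CPM in AAV9-hFNDC4 libraries. It was at 51.6, 49.4 and 34.8 CPM in AAV9-CTRL libraries. The groups did not overlap, and the log2 fold change was 0.99 (SE 0.16). Of its exon bases, 13.7% are shared with Gm43909 on the other strand, a gene not analysed here. Cry2 and Bhlhe40 share 3.43% and 3.72% of theirs with D930015M05Rik and 0610040F04Rik, which had at most 5 and 10 counts in any library. The DEC genes kept nearly the same proportion, with Bhlhe40 at 75.6% ± 0.978 of the DEC sum per kb in AAV9-hFNDC4 libraries and 76.0% ± 3.37 in AAV9-CTRL libraries, and these shares overlapped. The DEC sum itself was 59.2 ± 10.4 CPM per kb in AAV9-hFNDC4 libraries and 30.0 ± 2.02 in AAV9-CTRL libraries.

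Ciart (chromosome 3, 95878500 to 95882257), a repressor of CLOCK and BMAL1 that lacks the domains of the PER and CRY proteins, had a log2 fold change of -0.01 (SE 0.21). It stood at 31.5, 63.0 and 40.1 CPM in AAV9-hFNDC4 libraries and at 47.6, 41.2 and 46.3 CPM in AAV9-CTRL libraries. The AAV9-hFNDC4 libraries lay on both sides of the AAV9-CTRL range, with replicates 1 and 3 below it and replicate 2 above it. Their coefficient of variation was 36.3%, the widest of the 8 genes in either group, against 7.52% in AAV9-CTRL libraries. Leaving out AAV9-hFNDC4 replicate 2 gave -0.33 (SE 0.14), which was still not called. With this spread the data do not show that Ciart is alike in the groups.

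Ciart has the most E-boxes of the promoter windows examined. Its RefSeq window, chr3:95882179-95882478 on the minus strand of GRCm38.p6, is shown with the 3 copies of CACGTG in capitals.
Ciart: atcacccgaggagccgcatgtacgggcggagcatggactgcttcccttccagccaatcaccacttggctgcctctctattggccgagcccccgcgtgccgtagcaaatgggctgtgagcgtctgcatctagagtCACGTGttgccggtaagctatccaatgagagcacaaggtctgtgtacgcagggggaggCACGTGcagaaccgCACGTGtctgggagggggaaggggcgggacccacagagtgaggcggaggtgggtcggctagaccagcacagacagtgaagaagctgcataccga
They begin at -116, -58 and -44 relative to the start. At least 3 copies were found in 29 of the 32851 windows, or 0.0883%, and at least 2 copies in 0.594%.

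Among the 8 genes, 6 had an entry in the RefSeq promoter table, in 7 windows, since Per1 has 2 alternative starts. The entries of Per2 and Bhlhe40 are missing. Bhlhe41 has an E-box at -153 and the upstream Per1 window (chr11:69098699-69098998) an E-box at -166, while the downstream Per1 window (chr11:69099902-69100201) holds none of the letters searched. The other motifs searched on both strands were the cAMP response element TGACGTCA (1.79% of windows), the D-box TTACGTAA (0.119%), the heat shock letters GAANNTTC (7.86%) and the core of the hypoxia element, ACGTG (19.6%). The first 3 of these did not occur in the 7 windows. ACGTG lies within every CACGTG and within every CACGTT read from either strand, and each of its matches in the 7 windows was part of one of those. No match says only that these letters are not in the window.

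**Figure D3:**
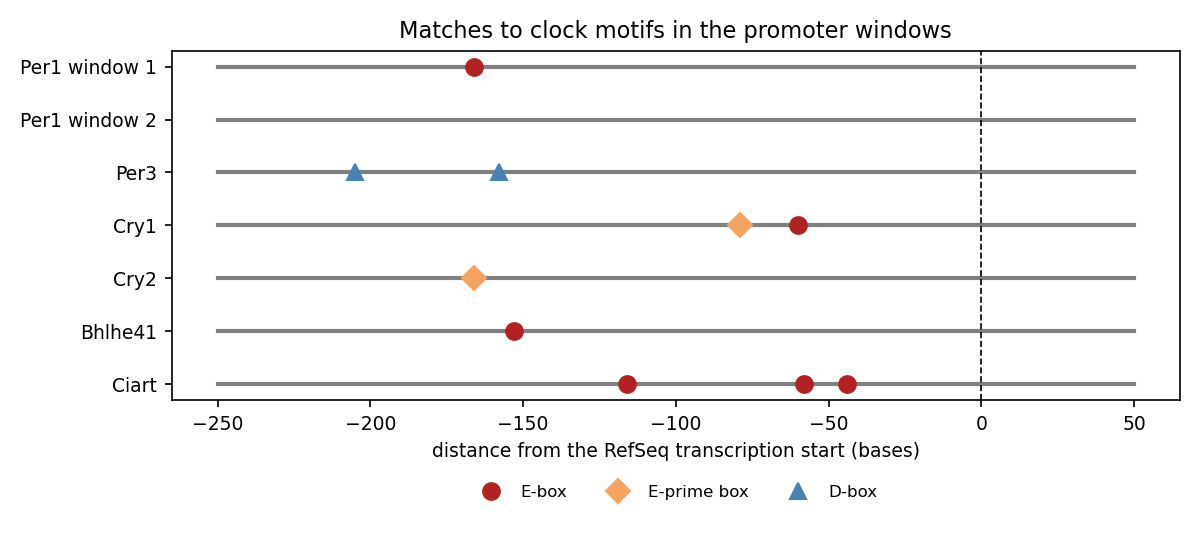
Positions of E-box (circle), E-prime box (diamond) and D-box (triangle) matches in the 7 promoter windows, as distance in bases from the RefSeq transcription start (dashed line); upstream is to the left. Ciart carries 3 E-boxes between -116 and -44, and Per3 carries 2 D-boxes at -205 and -158.

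Levels per kb of exon put Bhlhe40 at the top in AAV9-hFNDC4 libraries, at 44.8 ± 8.52 CPM per kb, followed by Ciart (22.8 ± 8.29), Per3 (15.6 ± 1.51), Per1 (14.5 ± 0.457), Bhlhe41 (14.4 ± 1.92), Cry1 (12.4 ± 3.26), Per2 (9.74 to 10.5) and Cry2 (8.89 to 11.8). In this order Bhlhe40 alone had a range that did not overlap with that of the next gene. In AAV9-CTRL libraries the order was Ciart (22.9 ± 1.73), Cry1 (22.8 ± 2.41), Bhlhe40 (22.7 ± 0.568), Per1 (9.73 ± 0.613), Bhlhe41 (7.23 ± 1.46), Cry2 (6.42 ± 0.557), Per3 (5.98 ± 2.02) and Per2 (5.60 ± 0.495). There the first 3 genes overlapped with each other, Per1 stood apart from both its neighbours, and the last 4 overlapped again. Cry1 was at rank 6 in AAV9-hFNDC4 and at rank 2 in AAV9-CTRL libraries, and Per3 at rank 3 in AAV9-hFNDC4 and at rank 7 in AAV9-CTRL libraries. Over all 6 libraries, Bhlhe40 averaged 33.8 CPM per kb, with 83.0% of 13392 genes of known length below it, and Per2 averaged 7.81, with 47.5% below it.

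The summed PER level was 40.1 ± 1.44 CPM per kb in AAV9-hFNDC4 libraries and 21.3 ± 2.35 in AAV9-CTRL libraries. Within the sum, Per3 took 38.8% ± 2.53 in AAV9-hFNDC4 libraries and 27.6% ± 6.66 in AAV9-CTRL libraries, Per1 took 36.2% ± 0.708 in AAV9-hFNDC4 and 46.1% ± 5.87 in AAV9-CTRL libraries, and Per2 took 25.0% ± 1.95 in AAV9-hFNDC4 and 26.3% ± 0.796 in AAV9-CTRL libraries. The Per3 share of AAV9-CTRL replicate 2, at 34.9%, lay just under the lowest AAV9-hFNDC4 share, 35.9%.

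Exon length moved with the fold changes of the whole table. Across 13392 genes, which are not independent replicates, the median log2 fold change was -0.49 in the shortest 10% and 0.46 in the longest 10%. The period genes and Bhlhe41 are long, with 82.5% to 86.5% of tested genes shorter than they are, while Bhlhe40 and Cry1 lie near the middle (50.6% and 47.9% shorter) and Ciart is shorter than most (25.7%). With a correction for this trend, Per1 was at 0.39 (SE 0.09), Per2 at 0.63 (SE 0.10), Per3 at 1.16 (SE 0.21), Cry2 at 0.57 (SE 0.13) and Bhlhe41 at 0.75 (SE 0.14), each lower than without it and still called. Bhlhe40 was at 1.03 (SE 0.13) and Cry1 at -0.81 (SE 0.17) with the correction.

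**Figure D4:**
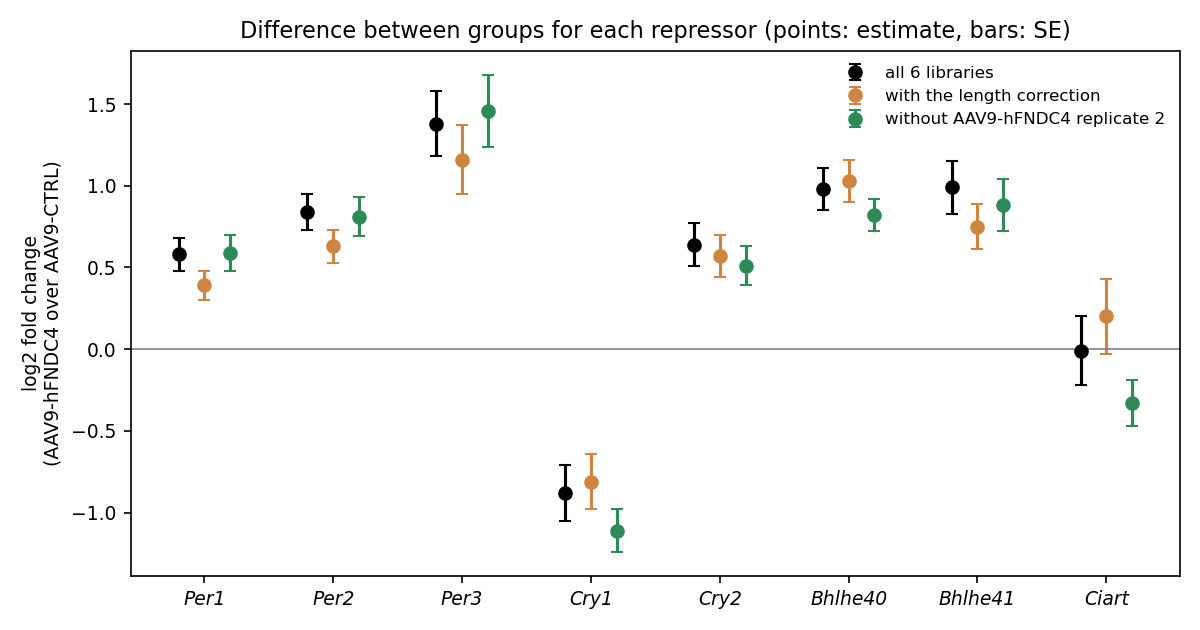
Log2 fold change of each repressor gene, AAV9-hFNDC4 over AAV9-CTRL (y axis; bars are SE), with all 6 libraries (black), with the length correction (brown) and without AAV9-hFNDC4 replicate 2 (green). Cry1 stays below 0 and 6 genes stay above 0 in all 3 fits, while Ciart crosses 0.

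AAV9-hFNDC4 replicate 2 differed from the other libraries of its group in a set of these genes. It was at 1.76 times the mean of the other AAV9-hFNDC4 libraries for Ciart, 1.53 times for Cry1, 1.37 times for Bhlhe40, 1.29 times for Cry2 and 1.25 times for Bhlhe41. It was at 1.08 times for Per2, 0.980 times for Per1 and 0.847 times for Per3. Over all tested genes the median of this ratio was 1.02, and 6.69% of genes exceeded 1.5 times. The same library was the highest of its group in 16 of 16 hypoxia-inducible genes, by 1.22 to 2.44 times, with Ero1a, an oxidase of protein folding, at 957, 2364 and 1189 CPM in AAV9-hFNDC4 libraries against 423, 397 and 436 CPM in AAV9-CTRL libraries. The AAV9-CTRL libraries were also spread in some of these genes, with AAV9-CTRL replicate 2 the highest. Pdk1 was at 40.4, 76.2 and 44.8 CPM and Car9 at 153, 376 and 203 CPM in AAV9-CTRL libraries. In others, such as Ero1a, Vegfa and Kdm3a, AAV9-CTRL replicate 2 was not the highest. The part of these hypoxia-inducible genes in the levels of the clock repressors was not tested.

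The genes that act with these repressors were followed in lists chosen by function, whose counts stand against the 47.1% of all tested genes that were called. Of 12 tested activators, nuclear receptors and PAR-bZIP factors of the clock, 9 were higher, 0 were lower and 3 did not pass, with a median log2 fold change of 0.63 (all tested genes 0.01). Nr1d1 (REV-ERB alpha), which represses Arntl and Cry1, rose to 79.3 ± 2.53 CPM in AAV9-hFNDC4 libraries against 53.8 ± 1.89 CPM in AAV9-CTRL libraries, a log2 fold change of 0.56 (SE 0.10). It shares 9.67% of its exon bases with Thra on the other strand. Rora, which opposes REV-ERB at the same sites, rose by 1.03 (SE 0.20), or by 0.55 with the length correction, and Hlf by 0.97 (SE 0.21). Arntl, whose transcript normally peaks opposite to those of the Per genes, was at 37.1, 56.4 and 43.6 CPM in AAV9-hFNDC4 libraries and at 26.0, 23.7 and 31.5 CPM in AAV9-CTRL libraries, a log2 fold change of 0.75 (SE 0.16). Clock was at 103 ± 17.3 CPM in AAV9-hFNDC4 libraries and 91.0 ± 20.7 CPM in AAV9-CTRL libraries and did not pass, and neither did Arntl2, at 7.16 ± 1.63 CPM in AAV9-hFNDC4 and 7.31 ± 0.170 CPM in AAV9-CTRL libraries. Npas2, a relative of Clock, was too low to be tested. Arntl and Clock were named after their values had been seen.

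Of 16 kinases, ubiquitin ligases and deubiquitinases that act on PER or CRY proteins, 7 were higher, 4 were lower and 5 did not pass, with a median of 0.13 that turned to -0.07 with the length correction. Csnk1d (casein kinase 1 delta), which phosphorylates PER proteins and marks them for degradation, fell to 135 ± 6.12 CPM in AAV9-hFNDC4 libraries against 230.5 ± 4.59 CPM in AAV9-CTRL libraries, with a difference of -0.77 on the log2 scale (SE 0.09). Csnk2b, the regulatory subunit of casein kinase 2, fell by 0.88 on the log2 scale (SE 0.11), or by 0.49 with the length correction. Gsk3b and Dyrk1a encode kinases that phosphorylate CRY2. Gsk3b was at 191 ± 35.9 CPM in AAV9-hFNDC4 libraries against 83.0 ± 14.6 CPM in AAV9-CTRL libraries, and Dyrk1a rose by 0.97 (SE 0.13). Fbxl21, a ubiquitin ligase subunit that acts on cryptochromes, was higher, with 1.17 (SE 0.27), and those that direct PER turnover, Btrc with 0.03 (SE 0.13) and Fbxw11 with -0.07 (SE 0.12), did not pass; these 3 were named after their values had been seen. With the replicate number as a block, 4 of the 16 were higher.

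Of 10 partners of the PER and CRY complex, 1 was higher, 5 were lower and 4 did not pass, with a median of -0.31. Sin3a, a corepressor that PER complexes bring to the Per1 promoter, rose to 109 ± 3.98 CPM in AAV9-hFNDC4 libraries against 50.8 ± 7.15 CPM in AAV9-CTRL libraries, a log2 fold change of 1.10 (SE 0.12). Ddx5, an RNA helicase, fell by 0.65 (SE 0.10), Rack1, a scaffold protein that is also part of the ribosome, by 0.69 (SE 0.11; 0.34 with the length correction) and Wdr5, a subunit of histone methyltransferases, by 0.62 (SE 0.11).

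**Figure D5:**
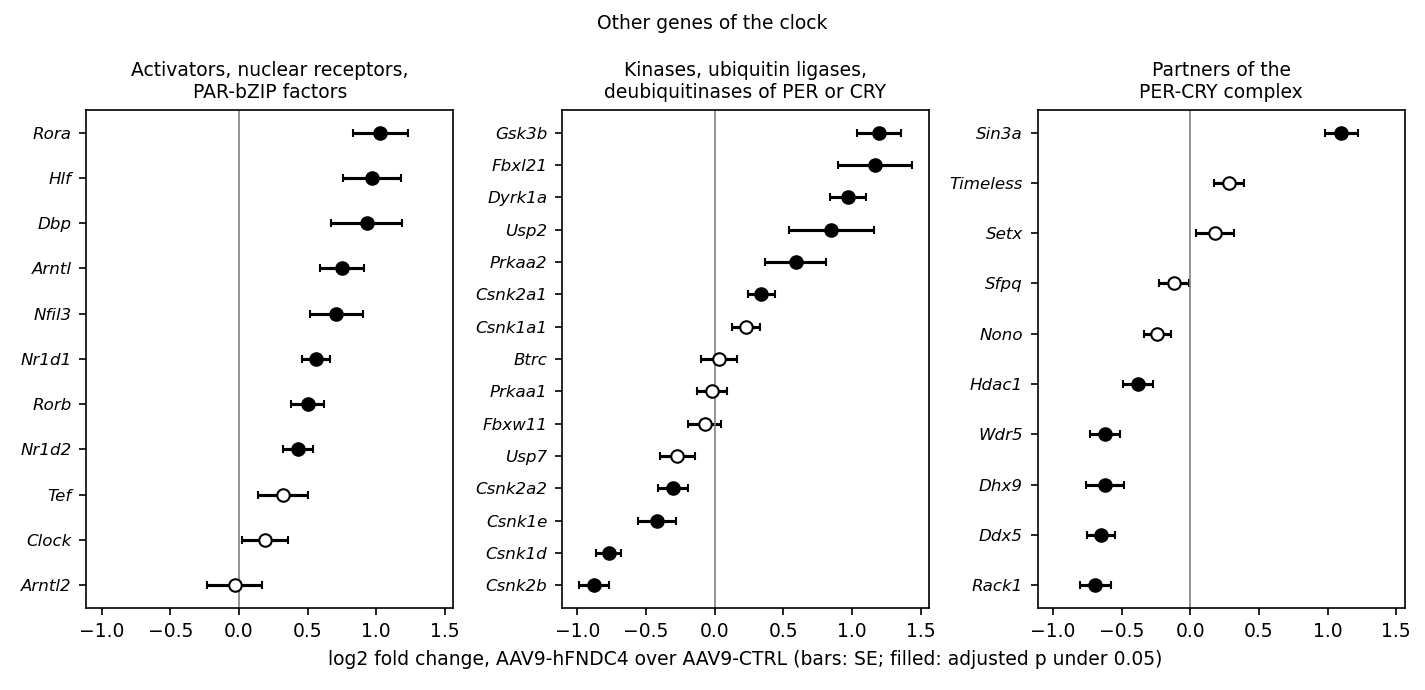
Log2 fold change, AAV9-hFNDC4 over AAV9-CTRL (x axis; bars are SE), of other clock genes tested, in 3 lists; filled points passed the adjusted p of 0.05 and open points did not. In the left panel the filled genes are all above 0, with Rora at 1.03, and in the right panel 5 of 10 are filled and below 0.

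Of 10 E-box output genes of the clock, 5 of which (Dbp, Tef, Hlf, Nr1d1 and Nr1d2) are also in the list of activators, 6 were higher, 0 were lower and 4 did not pass, with a median of 0.49. Nampt, the enzyme that limits NAD synthesis by salvage, rose by 0.67 (SE 0.15), and Noct, a rhythmic phosphatase of NADPH, had -0.21 (SE 0.23) and did not pass. Targets of signals known to act on Per1 and the DEC genes were counted as well. Of 11 glucocorticoid receptor targets, 3 were higher (Klf9, Pik3r1 and Cebpd), 3 were lower (Sgk1, Dusp1 and Errfi1) and 5 did not pass, with a median of -0.01. Klf9, itself a clock-controlled gene, rose by 1.43 (SE 0.12) and Pik3r1 by 1.18 (SE 0.12), while Sgk1, a kinase, was at 20.4 ± 3.66 CPM in AAV9-hFNDC4 libraries against 261 ± 58.6 CPM in AAV9-CTRL libraries and Dusp1, also in the next list, fell by 2.34 (SE 0.14). Among 12 targets of CREB, 3 passed as higher and 6 as lower, and 3 missed the threshold, with a median of -0.79, among them Fos with -5.68 (SE 0.20), Egr1 with -2.71 (SE 0.14) and Ppargc1a with 0.97 (SE 0.14). Of 16 hypoxia-inducible targets, a group to which the DEC genes also belong by function, 8 passed as higher, 0 as lower and 8 missed the threshold, with a median of 0.84, or 0.52 without AAV9-hFNDC4 replicate 2; Mxi1 had 0.89 (SE 0.14), Vegfa 0.86 (SE 0.15), and Kdm3a, with -0.34 (SE 0.14), did not pass.

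The profiles of the 8 genes were set against each other and against 11439 other genes of at least 1 CPM. The measure was the mean absolute difference, over the 6 libraries, of log2 CPM centred on each gene's own mean, so that 0 means the same profile. Among the repressor genes, Per1 and Cry2 differed by 0.10, as did Per2 and Bhlhe41, while Cry1 differed from the others by 0.42 (Ciart) to 1.16 (Per3). The nearest genes outside the family were Phf20 (0.0204) and Tmem135 (0.0266) for Per1, Arhgef11 (0.0256) and Ubn2 (0.0308) for Per2, and Sspn (0.0794) and Mill2 (0.0833) for Per3. For the cryptochromes they were Egf (0.0446) and Ptgs2 (0.0529) for Cry1 and Rexo5 (0.0352) and Fam135a (0.0354) for Cry2. For the remaining genes they were Agap1 (0.0315) and Rnf125 (0.0357) for Bhlhe40, Rragd (0.0564) and Hvcn1 (0.0613) for Bhlhe41, and Abcb1a (0.0755) and Rbm4 (0.0808) for Ciart. Ptgs2, the inducible cyclooxygenase, had 16.2, 31.0 and 20.5 CPM in AAV9-hFNDC4 libraries against 42.2, 35.7 and 43.2 CPM in AAV9-CTRL libraries, with AAV9-hFNDC4 replicate 2 highest in its group as for Cry1. With 6 libraries in 2 groups, such likeness is a description of these libraries.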

How the data were processed

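The data are 6 RNA-seq libraries, 3 per vector label. Per the labels' protocols, TRIzol extraction was followed by library construction with VAHTS Universal V6 reagents. The authors deposited raw counts per gene symbol, without normalization; fastp, HISAT2, HTSeq, R 3.2.0, DESeq2 and the build GRCm38 (mm10) are named per the submitters' processing notes, while no source used here gives parameters, annotation release or strand setting. The groups were compared in R 4.3.3 with edgeR 4.0.16 (filterByExpr, TMM, robust quasi-likelihood F test, Benjamini-Hochberg adjustment over 14663 genes, threshold 0.05), and the SE is the log2 fold change divided by the square root of F. The fits were tested on simulated data in which far fewer genes changed than were called here, equally in both directions. That setting does not show how normalization or false calls behave in these data. Exon lengths, used for CPM per kb, came from GENCODE vM21 basic, and 91.3% of tested genes had one; gene spans and promoter windows came from RefSeq on GRCm38.p6. Marker sums used plain library totals.

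The members and lists were chosen with earlier results of these data known. Named were all 8 members, up to 4 genes per list (the smallest p in each direction, then the next smallest) and the 2 most similar profiles per member; other genes were named after their values had been seen. Alternatives were RLE and upper-quartile normalization, testing without a low-count filter, a stricter filter of 1 CPM in 3 libraries, limma-voom (limma 3.58.1), DESeq2 1.42.0, the replicate number as a block, loess corrections (span 0.4) for exon length and GC content, and leaving out each library in turn. Protein sequences of the members were not used here. The counts of 2 lists each include a gene that is not reported here by name or drawn.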

Additional observations from a re-analysis of the deposited data

How the results depend on the processing

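Of the 8 repressor genes, 7 were called in the same direction under every alternative run, among them each library left out in turn. The main fit called 47.1% of all tested genes, and the share of these that kept their call in every alternative is not given here. The 8 genes were chosen with this contrast known, so their count is a description. Over the alternatives, Per1 lay between 0.39 with the length correction and 0.77 with the GC correction, Per3 between 1.16 with the length correction and 1.66 without AAV9-CTRL replicate 2, and Cry1 between -1.11 without AAV9-hFNDC4 replicate 2 and -0.74 without AAV9-hFNDC4 replicate 1. Ciart, not called anywhere, turned positive with upper-quartile normalization (0.05), no low-count filter (0.01), the length correction (0.20) and the GC correction (0.08), and ranged from -0.33 to 0.20 with single libraries left out. Arntl2, also not called, turned positive with upper-quartile normalization (0.03) and the length correction (0.05), and ranged from -0.19 to 0.14 with single libraries left out.

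The median of the kinases, ligases and deubiquitinases was -0.07 with the length correction, 0.06 with the GC correction and 0.19 with upper-quartile normalization. That of the activators, nuclear receptors and PAR-bZIP factors, 0.63 in the main fit, was 0.76 with the GC correction and 0.51 without AAV9-hFNDC4 replicate 2. Counts in the lists moved as follows. Partners of the PER and CRY complex called higher numbered 2 with upper-quartile normalization and 2 with the GC correction, and 1 to 3 with single libraries left out. Kinases, ligases and deubiquitinases called lower numbered 2 with the GC correction, and 2 to 5 with single libraries left out, at 2 without AAV9-hFNDC4 replicate 1, AAV9-hFNDC4 replicate 2, AAV9-CTRL replicate 1 or AAV9-CTRL replicate 3. E-box output genes called lower numbered 1 with the length correction (Noct, -0.68), and 0 to 1 with single libraries left out (Noct, -0.55, without AAV9-hFNDC4 replicate 2). Hypoxia-inducible targets called lower numbered 1 (Kdm3a) with no low-count filter, DESeq2, limma-voom, the length correction and the GC correction, and 0 to 1 with single libraries left out. The cause of these moves was not tested.

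Libraries with the same replicate number did not deviate together (correlations -0.14, -0.28 and -0.12, and 0 of 6 libraries correlated best with its own number). With 3 libraries per group, this check cannot exclude that the numbers pair them. With the replicate number as a block, 2663 genes were called higher and 3080 lower, against 3240 and 3668 without it, and 4 in place of 7 kinases, ligases and deubiquitinases and 12 in place of 8 hypoxia-inducible targets were called higher. It changed no call of the 8 repressor genes. Counting error is small at these depths, where the lowest count of any of the 8 genes was 797, so the spread between 3 libraries limits precision.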
